A study of Mus musculus with 2 samples.

Results

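Collagen chains were followed in the heat-producing brown fat of a conditional D3B knockout and its control. The members were all mouse genes whose symbol is Col, a type number, a and a chain number, with at least 0.5 FPKM in either library. FPKM counts sequenced fragments relative to transcript length and library size. The RefSeq gene table holds 44 such symbols, of which 41 were listed in at least 1 library and 24 passed 0.5 FPKM, out of 12869 genes of 16174 that passed. The 24 were 8 fibrillar chains of 11 (types I, II, III, V, XI, XXIV and XXVII), 5 basement membrane chains of 8 (types IV, XV and XVIII), 3 beaded-filament chains of 6 (type VI) and 8 chains of 19 of the other types.

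There were 2 libraries, 1 per genotype, both from C57BL/6 female mice aged 45 weeks on chow. D3BKO, the knockout, carried the alleles D3Bfl/fl and UCP1-Cre+/-. D3BWT, its control, carried D3Bfl/fl without a Cre in its label. Both therefore share the floxed alleles, and loss of D3B and presence of the Cre transgene cannot be told apart. D3B is read here as Dnmt3b, a DNA methyltransferase that adds methyl groups to cytosines of CpG pairs. The Ucp1 promoter limits the Cre to cells that use it, chiefly brown adipocytes, so other cells of the tissue keep the gene. How many mice a library holds is not stated in its labels.

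Collagens are secreted proteins in which chains wind into a trimeric helix. Fibrillar collagens form the cables of connective tissue, type IV forms the sheet under endothelium and around each adipocyte, and type VI forms beaded filaments between them. In fat much of the fibrillar collagen comes from fibroblasts and preadipocytes, while endothelial cells, mural cells and adipocytes add basement membrane chains.

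The D3BKO library held 10068359 expected counts and the D3BWT library 9666528. With 1 library per group there was no test and no replicate check, and every interval below is a 95% interval that covers counting error only. The D3BKO library was run on lane 1 and the D3BWT library on lane 2, and the effects of lane and genotype cannot be separated. Dnmt3b (Entrez 13436) had 7 counts in the D3BKO library and 15 in the D3BWT library, a ratio of 0.46 with an interval of 0.16 to 1.20 that includes 1, so its loss was not detectable at this depth. That gene-level value also holds exons outside a deleted part and cells without Cre. Ucp1, the defining gene of brown adipocytes, was at 4271 FPKM in the D3BKO library and 4987 FPKM in the D3BWT library, so both are brown fat by that marker.

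Fibrillar chains of types I, III and V, the type VI chains past 0.5 FPKM and the basement membrane chains Col15a1 and Col18a1 had 1.45 to 1.94 times as many FPKM in the D3BKO library as in the D3BWT library. A chain was called, and is named higher or lower below, when the ratio of D3BKO to D3BWT in FPKM + 1, given below as its log2, was at least 1.5-fold up or down and the counting interval of the FPKM ratio left out 1. By that rule 10 of 24 chains were higher, while 4.18% of all genes with at least 0.5 FPKM were, and 1 was lower, against 3.41% of all genes. On this log2 scale 19 chains lay above 0, where 46.5% of all genes did, and their median was 0.53 against -0.02 over all genes. Over all genes 538 were higher and 439 lower. After FPKM totals were made equal these became 712 and 334, with 12 collagen chains higher and 1 lower. No chain reached 2-fold on the log2(FPKM + 1) scale. The chains are listed by class, each with its FPKM in both libraries and then the FPKM ratio of knockout to control.

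**Figure D1:**
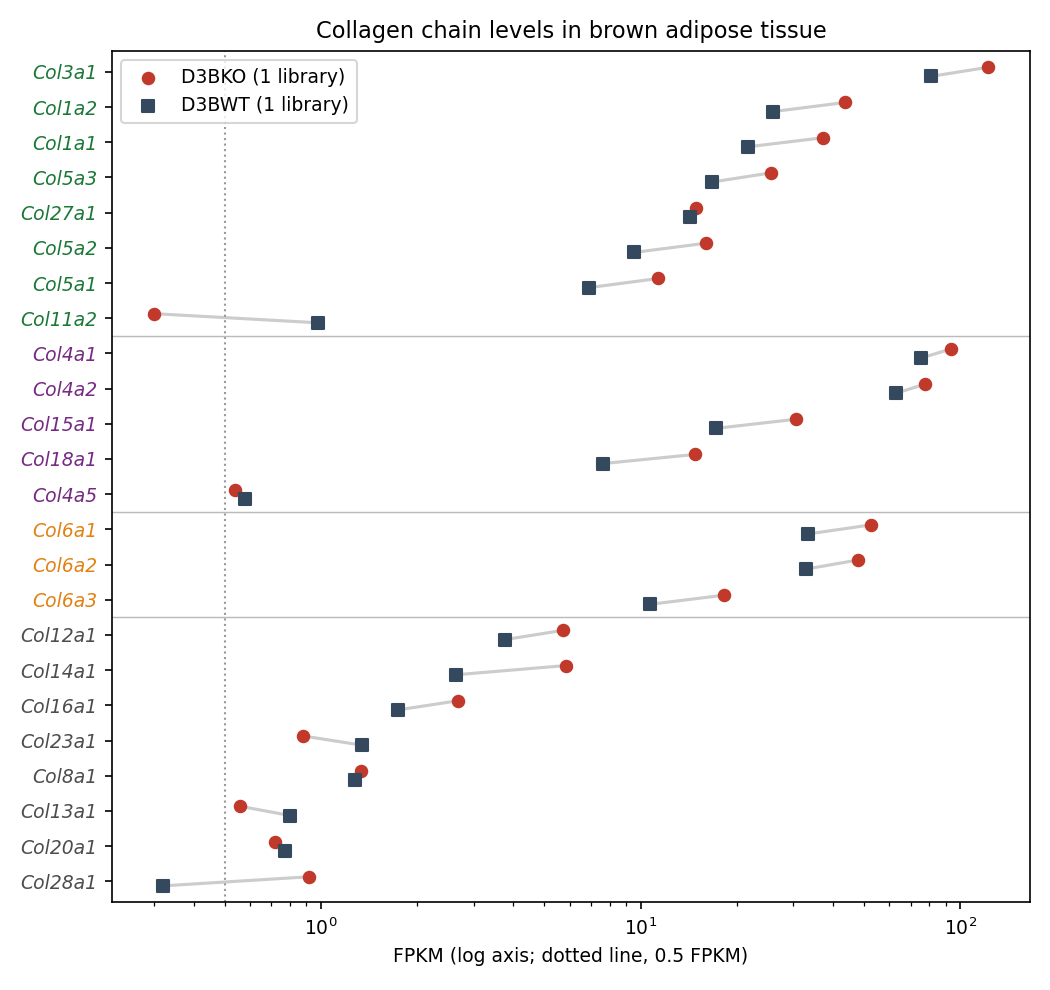
FPKM of the 24 collagen chains on a log axis, by class from top to bottom (fibrillar, basement membrane, beaded, other); circles are the D3BKO library and squares the D3BWT library, 1 library each. The abundant chains lie to the right of their control squares, while Col11a2, Col23a1, Col13a1, Col20a1 and Col4a5 lie to the left.

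Fibrillar chains of types I, III and V had ratios between 1.51 and 1.72, and 5 of them were called higher, while 2 cartilage-related fibrillar chains did not follow them. Col3a1, the chain of type III in pliable tissue and vessel walls, was the most abundant collagen of both libraries at 122.05 FPKM in D3BKO and 80.72 FPKM in D3BWT. Its ratio of 1.51 had an interval of 1.46 to 1.57. Col1a2 was at 43.58 FPKM in D3BKO and 25.87 FPKM in D3BWT, and Col1a1 at 37.31 FPKM and 21.63 FPKM in the same order of libraries. These partner chains of type I, the main load-bearing fibril, had ratios of 1.68 (1.57 to 1.81) for Col1a2 and 1.72 (1.59 to 1.87) for Col1a1. Col5a1 and Col5a2, type V chains that start type I fibrils, were close to type I in their ratios. Col5a2 stood at 15.96 FPKM in D3BKO and 9.55 FPKM in D3BWT, with a ratio of 1.67 (1.51 to 1.85). Col5a1 stood at 11.36 FPKM in D3BKO and 6.90 FPKM in D3BWT, with a ratio of 1.65 (1.48 to 1.83). Col5a3, the third type V chain, was at 25.57 FPKM in D3BKO and 16.73 FPKM in D3BWT. Its ratio of 1.53 (1.41 to 1.66) fell just short of the call, with 0.58 on the log2(FPKM + 1) scale, just under log2 of 1.5.

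Col27a1, a fibrillar chain known from cartilage, was at 14.94 FPKM in D3BKO and 14.27 FPKM in D3BWT, a ratio of 1.05 (0.96 to 1.14). It rested on 1144 counts in D3BKO and 1050 in D3BWT. Col11a2, a type XI chain of cartilage, was the chain called lower, at 0.30 FPKM with 17 counts in D3BKO and 0.98 FPKM with 53 counts in D3BWT. The ratio was 0.306 (0.166 to 0.537). Its call is close to the limit, with -0.61 on the log2(FPKM + 1) scale, and ended when the median log2 ratio of all genes was set to 0. Over the 8 fibrillar chains 5 were higher and 1 lower, with a median log2 ratio of 0.62.

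Basement membrane chains split by type. Col4a1 was at 93.69 FPKM in D3BKO and 75.55 FPKM in D3BWT, and Col4a2 at 77.79 FPKM in D3BKO and 62.95 FPKM in D3BWT. These chains, which form the common type IV trimer, had ratios of 1.24 (1.19 to 1.29) for Col4a1 and 1.24 (1.18 to 1.29) for Col4a2. Both intervals lay above 1 and neither chain reached the call. Col15a1 and Col18a1, the proteoglycan-like collagens that link basement membranes to the fibrils around them, were both called higher. Col15a1 had 30.60 FPKM in D3BKO and 17.20 FPKM in D3BWT, a ratio of 1.78 (1.64 to 1.93). Col18a1, whose end fragment is the vessel inhibitor endostatin, had 14.81 FPKM in D3BKO and 7.62 FPKM in D3BWT, a ratio of 1.94 (1.72 to 2.20). Col4a5, a type IV chain of kidney and other specialised membranes, did not differ beyond counting error, at 0.54 FPKM in D3BKO and 0.58 FPKM in D3BWT, with 34 and 36 counts in that order and a ratio of 0.93 (0.57 to 1.53). The class median was 0.31, with 2 of 5 chains higher.

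All 3 type VI chains past 0.5 FPKM, which are prominent in adipose matrix, had intervals above 1, and 2 were called higher. Col6a1 stood at 52.69 FPKM in D3BKO and 33.42 FPKM in D3BWT, a ratio of 1.58 (1.47 to 1.69). Its partner Col6a2 stood at 47.79 FPKM in D3BKO and 32.85 FPKM in D3BWT, a ratio of 1.45 (1.35 to 1.57) that stayed under the call. Col6a3, whose end fragment is the secreted peptide endotrophin, stood at 18.24 FPKM in D3BKO and 10.68 FPKM in D3BWT, a ratio of 1.71 (1.58 to 1.85). Their class median was 0.64. Of the remaining type VI genes, Col6a5 had 10 counts in D3BKO against none in D3BWT, where a count of 0 allows up to 3 counts, and the interval of its ratio starts at 2.15. Col6a6 had 5 counts in D3BKO and 9 in D3BWT, and Col6a4 had 3 counts in D3BKO alone.

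**Figure D2:**
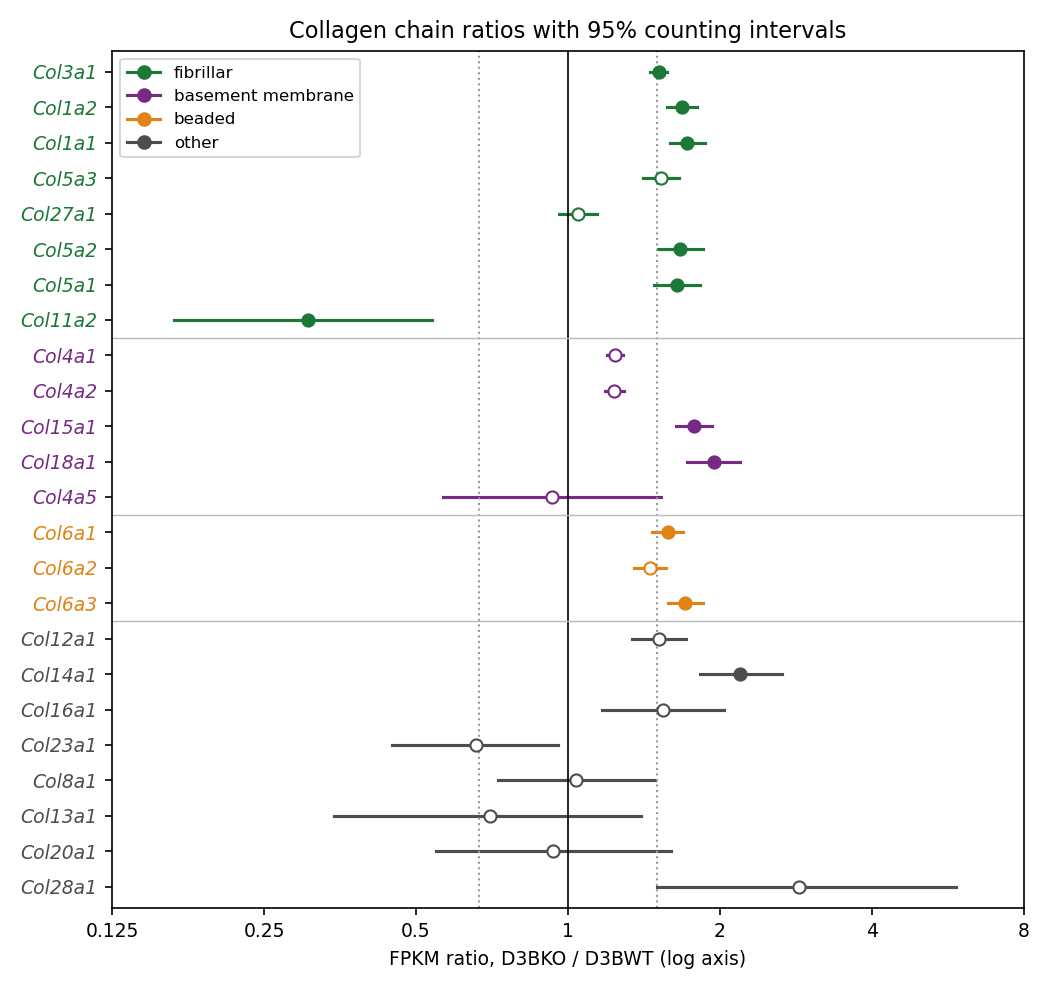
FPKM ratio of D3BKO to D3BWT (log axis) for the 24 chains with 95% counting intervals; colours are classes, filled points pass the call and dotted lines mark 1.5-fold on the plain ratio. The filled points are 10 chains to the right and Col11a2 at 0.306 on the left; Col28a1, at 2.88, is open because the call uses FPKM + 1.

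Among the other types 1 of 8 chains was called higher and none lower. Col14a1, which coats type I fibrils, had 5.82 FPKM in D3BKO and 2.65 FPKM in D3BWT. Its ratio of 2.20 (1.82 to 2.65) was the largest among chains with at least 5 FPKM in either library, and it was the member called. Col12a1, another fibril-coating chain, had 5.71 FPKM in D3BKO and 3.77 FPKM in D3BWT, a ratio of 1.51 (1.34 to 1.71). Col16a1 had 2.68 FPKM in D3BKO and 1.74 FPKM in D3BWT, a ratio of 1.54 (1.17 to 2.04). Col28a1 was at 0.92 FPKM in D3BKO and 0.32 FPKM in D3BWT, on 39 and 13 counts in that order. It had the largest plain ratio of the 24 chains, 2.88, with a wide interval of 1.502 to 5.87.

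Col23a1, a chain anchored in the cell membrane, was at 0.88 FPKM in D3BKO and 1.34 FPKM in D3BWT, a ratio of 0.657 (0.449 to 0.954). Col13a1, also anchored in the membrane, was at 0.56 FPKM in D3BKO and 0.80 FPKM in D3BWT with an interval of 0.34 to 1.40. Of these membrane chains Col23a1 had an interval under 1 and Col13a1 did not. Col8a1, a short chain of vessel walls, was at 1.33 FPKM in D3BKO and 1.28 FPKM in D3BWT, an interval of 0.73 to 1.49. Col20a1 was at 0.72 FPKM in D3BKO and 0.77 FPKM in D3BWT, an interval of 0.55 to 1.60. The class median of 0.23 was 0.031 without Col12a1, which has no GC content in the annotation used. Over the same chains it was -0.055 after the trend of the log2 ratio with transcript length, GC content and expression was removed.

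The limit of 0.5 FPKM parts chains of like level. Just inside it lay Col4a5, given above, and just outside lay Col7a1, the anchoring fibril chain of skin, with 0.40 FPKM in D3BKO and 0.31 FPKM in D3BWT. In all 17 listed chains were below the limit, 7 of them with at most 3 counts in either library. These 7 were Col24a1, Col11a1, Col6a4, Col26a1, Col19a1, Col9a2 and Col25a1. Of the others, Col9a3 was not listed in D3BKO and had 6 counts in D3BWT, and the interval of its ratio ends at 0.816. Col10a1, Col8a2, Col22a1, Col17a1, Col4a3 and Col4a4 had intervals that included 1, as Col7a1 and Col6a6 did. Col2a1, Col4a6 and Col9a1 had no value in either library. Col2a1 and Col9a1 are chains of cartilage, and 5 of 8 cartilage and bone markers (Acan, Matn1, Matn3, Bglap and Ibsp) were at 0 in both libraries as well.

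The proportions of 4 pairs of chains that share a trimer did not differ between the libraries beyond counting error. Within the D3BKO library Col1a1 had 0.856 times the FPKM of Col1a2, and within D3BWT 0.836 times, where the protein holds more Col1a1 than Col1a2. The count ratio of this pair differed between the libraries by a factor of 1.02 (0.92 to 1.14). For Col4a1 over Col4a2 the FPKM ratio was 1.204 in D3BKO and 1.200 in D3BWT, a factor of 1.004 (0.948 to 1.062). Col6a1 over Col6a2 stood at 1.10 in D3BKO and 1.02 in D3BWT, a factor of 1.08 (0.98 to 1.20). Col5a1 over Col5a2 stood at 0.712 in D3BKO and 0.723 in D3BWT, a factor of 0.985 (0.851 to 1.141). All 4 intervals include 1. So do those of the factors for Col6a3 over Col6a1, 1.09 (0.98 to 1.22), and Col5a3 over Col5a1, 0.928 (0.812 to 1.061). Col6a3 over Col6a2, also of type VI, was not compared in this way. Their FPKM ratios of knockout to control were 1.71 (1.576 to 1.852) and 1.45 (1.351 to 1.568), intervals that do not meet. Col3a1 over Col1a1, chains of different trimers, stood at 3.27 in D3BKO and 3.73 in D3BWT, a factor of 0.877 (0.803 to 0.957). Between classes Col1a1 over Col4a1 was 0.398 in D3BKO and 0.286 in D3BWT, a factor of 1.39 (1.27 to 1.52).

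Summed over the 41 listed chains, collagens took 0.360% of the D3BKO counts (0.356 to 0.364) and 0.2503% of the D3BWT counts (0.247 to 0.254, Wilson intervals). As CPM, counts scaled to library size, the sum was 3602 in D3BKO and 2503 in D3BWT, a ratio of 1.44 (1.42 to 1.46). By class this ratio was 1.52 (1.48 to 1.56) for fibrillar chains, 1.57 (1.51 to 1.64) for beaded chains, 1.51 (1.39 to 1.64) for the other types and 1.31 (1.28 to 1.34) for basement membrane chains. The interval of the basement membrane sum does not meet the intervals of the other sums, which overlap each other. As shares of the collagen FPKM, fibrillar chains made 43.2% in D3BKO and 40.9% in D3BWT, and basement membrane chains 34.7% in D3BKO and 38.05% in D3BWT. The collagen pool was concentrated, since Col3a1, Col4a1 and Col4a2 made 46.8% of it in D3BKO and 50.8% in D3BWT.

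**Figure D3:**
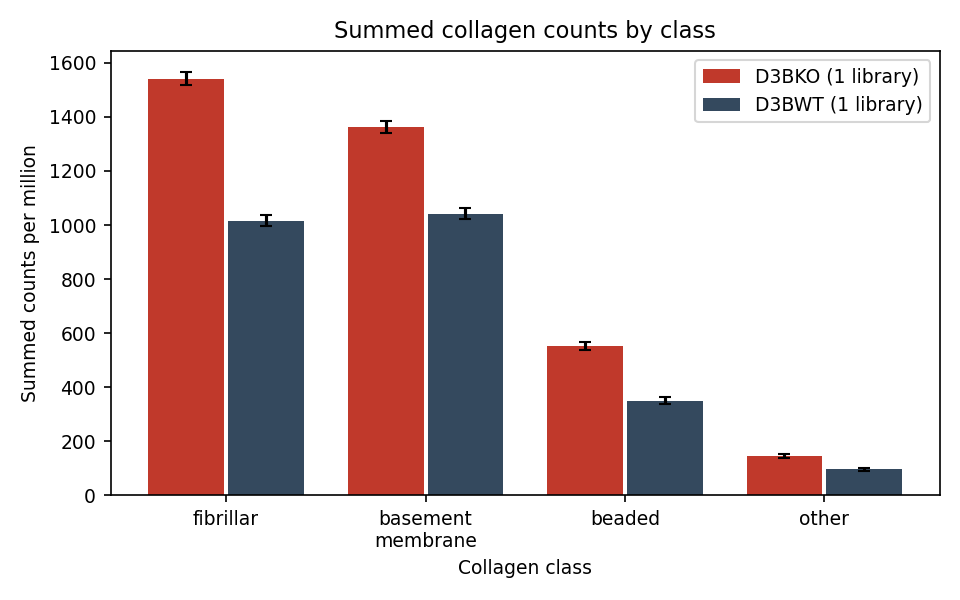
Summed CPM of collagens for each class, with D3BKO to the left of D3BWT and bars of 95% Poisson counting error; 1 library each. Fibrillar chains sum above basement membrane chains in the D3BKO library, at 1542 and 1363 CPM, while in the D3BWT library they are close, at 1016 and 1041.

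The promoter sequences are shown because D3B acts on CpG pairs and because chains with like ratios differ widely in them. RefSeq windows of 300 bases (250 before the annotated start and 50 after, build GRCm38.p6) were matched for 20 of the 24 genes, 22 windows in all, while Col1a1, Col5a2, Col12a1 and Col14a1 had none in the table. The windows held from 0 to 37 CpG pairs with a median of 14.5, against a median of 7 over 32851 windows. Those 32851 windows were not limited to genes with at least 0.5 FPKM as the members were, so the sets are unlike. Below are the 250 bases before the start of a type I chain (chr6:4505368-4505617), the type III chain (chr1:45311288-45311537) and the type XV chain (chr4:47207762-47208011), all on the plus strand, with CpG pairs in capitals.
Col1a2: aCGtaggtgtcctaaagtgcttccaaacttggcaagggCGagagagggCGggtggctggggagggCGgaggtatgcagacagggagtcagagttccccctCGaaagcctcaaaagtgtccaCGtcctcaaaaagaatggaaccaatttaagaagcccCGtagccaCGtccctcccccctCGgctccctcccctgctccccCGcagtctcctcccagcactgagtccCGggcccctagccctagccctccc
Col3a1: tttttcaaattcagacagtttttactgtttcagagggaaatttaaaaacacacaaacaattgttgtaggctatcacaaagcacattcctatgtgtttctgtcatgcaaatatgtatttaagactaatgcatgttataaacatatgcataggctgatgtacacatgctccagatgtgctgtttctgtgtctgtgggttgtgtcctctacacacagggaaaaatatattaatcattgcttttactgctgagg
Col15a1: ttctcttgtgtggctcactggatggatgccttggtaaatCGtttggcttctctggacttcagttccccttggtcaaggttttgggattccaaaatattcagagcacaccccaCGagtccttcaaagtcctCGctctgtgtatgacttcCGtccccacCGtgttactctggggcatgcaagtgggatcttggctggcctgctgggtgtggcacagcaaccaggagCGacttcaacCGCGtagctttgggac

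These stretches hold 11 CpG pairs for Col1a2, 0 for Col3a1 and 8 for Col15a1, beside FPKM ratios of 1.68, 1.51 and 1.78. Col5a1 had 34 CpG pairs in its window of 300 bases and a ratio of 1.65, and Col27a1 had 18 and a ratio of 1.05. High and low CpG content both occur among the higher chains that have a window. A relation of CpG content to the ratios was not tested, and methylation itself was not measured. The letters CCAAT, on either strand, were in 7 of 22 member windows or 31.8%, against 37.4% of all windows. TATAAA on either strand was in 13.6% of member windows and 13.6% of all windows. GGGCGG on either strand, the GC box, was in 14 member windows or 63.6%, against 35.7% of all windows. Motifs were counted separately, so matches may overlap, and a match describes the sequence only.

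Col4a1 and Col4a2 lie head to head on chromosome 8, and their windows share 78 bases. The 30 bases around both annotated starts (chr8:11312801-11312830, plus strand) are shown because these neighbours had nearly the same ratio, with capitals from the first base of Col4a2 to the first base of Col4a1, which is read from the other strand.
Col4a1 and Col4a2: cggcAGTGCGCGGGCGGCGTCTCCAAgggg

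The annotated transcripts overlap over these 22 capital bases, which are 0.295% of the exon bases of Col4a1. The library protocol does not mention strand, so reads there cannot be assigned to a strand. Exons of other genes also overlap Col3a1, Col4a2, Col5a1, Col15a1 and Col20a1, each other gene by at most 1.54% of the collagen's exon bases.

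Genes that build collagen were followed from lists of their roles. Over all genes with at least 0.5 FPKM 4.18% were higher and 3.41% lower. The lists are short, so 1 or 2 calls in a list are not read as a difference from these shares. Among enzymes and chaperones that fold and modify the chains, 3 of 20 were higher and 1 lower, with a median log2 ratio of 0.14. P4ha2 and P4ha1, catalytic subunits of the prolyl hydroxylase that stabilises the helix, were higher. P4ha2 had 10.15 FPKM in D3BKO and 4.07 FPKM in D3BWT, a ratio of 2.49 (1.94 to 3.23), and P4ha1 had 10.04 FPKM in D3BKO and 5.82 FPKM in D3BWT, a ratio of 1.73 (1.46 to 2.04). Fkbp10, a collagen chaperone, was higher with a ratio of 2.05 and Colgalt2, which adds galactose to collagen, lower with 0.315. Among proteins that process and crosslink procollagen, 1 of 8 was higher and none lower, with a median of 0.43. The gene was Pcolce2, an enhancer of procollagen cleavage, with a ratio of 1.61, while Pcolce at 1.501 and the crosslinking enzyme Lox at 1.502 were under the call.

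Proteins that bind fibrils had 6 of 15 higher and none lower, with a median of 0.50, and 2 higher with a pseudocount of 5 FPKM in place of 1. Fn1, the fibronectin on which fibrils assemble, had 22.68 FPKM in D3BKO and 7.66 FPKM in D3BWT, a ratio of 2.96 (2.70 to 3.26). Aspn, a small proteoglycan, had a ratio of 1.88 and Thbs2, a matricellular protein, 2.15. Basement membrane partners had 2 of 14 higher and none lower, with a median of 0.07. These were the nidogens, which join laminin to type IV collagen. Nid1 stood at 42.05 FPKM in D3BKO and 24.67 FPKM in D3BWT, a ratio of 1.70 (1.60 to 1.82), and Nid2 had a ratio of 1.75 (1.45 to 2.12).

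Collagen receptors lay above 0 in 12 of 12 cases, where 46.5% of all genes did, with a median of 0.29. Of these receptors 1 was higher, the matrix receptor Cd44 with a ratio of 2.42 (1.90 to 3.10). Ddr2, a kinase receptor for fibrillar collagen, had a ratio of 1.54 (1.34 to 1.77) and was under the call. Of 10 proteases and inhibitors 2 were higher and 1 lower, with a median of 0.17. The higher genes were inhibitors, Timp1 with a ratio of 3.18 (1.88 to 5.62) and Timp3 with 1.72 (1.63 to 1.82). The lower gene was the protease Mmp9, on 5 counts in D3BKO and 23 in D3BWT. Signals known to induce collagen genes had 2 of 17 higher, none lower and a median of 0.01. Among the higher genes was Ccn2, a secreted matricellular protein, at 13.79 FPKM in D3BKO and 4.10 FPKM in D3BWT.

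**Figure D4:**
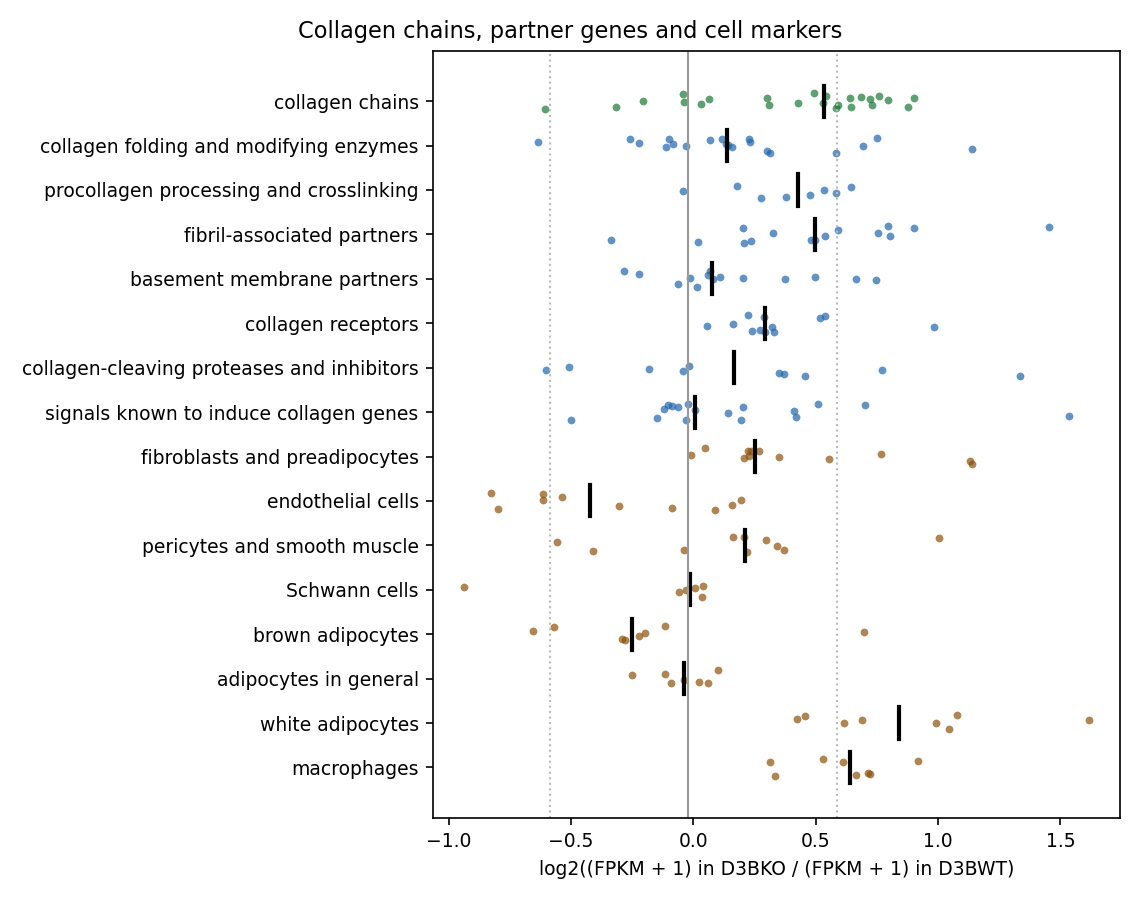
log2((FPKM + 1) ratio, D3BKO / D3BWT) of every gene with at least 0.5 FPKM, 1 point per gene with small random vertical offsets, for collagen chains (top), partner lists and cell markers with at least 5 such genes; thick bars are medians, the solid line is the median of all genes and dotted lines mark 1.5-fold. Collagen chains have a median of 0.53, endothelial markers -0.42 and macrophage markers 0.64.

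In bulk tissue more cells of a type and more RNA per cell cannot be told apart, and markers of several cell types moved with the collagens. Fibroblast and preadipocyte markers had 3 of 12 higher and none lower with a median of 0.25. They summed to 1482 FPKM in D3BKO and 1278 FPKM in D3BWT. Most of both sums was 1 marker, at 876 FPKM in D3BKO and 849 FPKM in D3BWT, a ratio of 1.03. Dpt, a fibril-binding protein of fibroblasts, had a ratio of 2.22 (2.07 to 2.37). Macrophage markers had 5 of 8 higher and none lower, with sums of 525 FPKM in D3BKO and 352 FPKM in D3BWT. White adipocyte markers had 6 of 8 higher and none lower, with sums of 751 FPKM in D3BKO and 411 FPKM in D3BWT. Endothelial markers had 4 of 10 lower (2 after FPKM totals were made equal), none higher and sums of 205 FPKM in D3BKO and 272 FPKM in D3BWT. Emcn, an endothelial sialomucin, had a ratio of 0.558 (0.466 to 0.666). Smooth muscle and pericyte markers had 1 of 10 higher, Acta2, and none lower, with sums of 156 FPKM in D3BKO and 137 FPKM in D3BWT. Brown adipocyte markers had 1 of 8 higher and 1 lower (none lower after FPKM totals were made equal) and summed to 14594 FPKM in D3BKO and 18721 FPKM in D3BWT. General adipocyte markers had none of 7 called, with a summed ratio of 0.933. Of the Schwann cell markers 1 of 6 was lower, Ngfr, with sums of 219 FPKM in D3BKO and 220 FPKM in D3BWT. Most of both sums was again 1 marker, at 203 FPKM in D3BKO and 202 FPKM in D3BWT. Of 8 markers each, 2 of skeletal muscle, 2 of epithelium and mesothelium and 2 of cartilage and bone passed 0.5 FPKM. Skeletal muscle markers summed to 3.37 FPKM in D3BKO and 2.86 FPKM in D3BWT, with Acta1 higher and Ckm at 0 in both. Epithelial and mesothelial markers summed to 10.8 FPKM in D3BKO and 23.0 FPKM in D3BWT, with the keratins Krt14 and Krt5, whose reads are partly shared with other genes, lower and Epcam, Msln and Upk3b at 0 in both. Cartilage and bone markers summed to 1.89 FPKM in D3BKO and 1.03 FPKM in D3BWT, with Comp, also a fibril-binding protein, higher at a ratio of 3.62 (1.70 to 8.57). The part of these cell types in the collagen ratios was not tested.

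Collagen transcripts are long, and the log2 ratio varied with length over all genes. The median length of the 24 chains was 5585 bases and that of all genes 2673 bases. The median log2 ratio was -0.15 in the shortest 10% of genes and 0.05 in the longest 10%. Among the 1931 genes with transcripts of at least 5000 bases 3.42% were higher and 0.984% lower. With the trend in length, GC content and expression removed, 11 of 22 chains with known GC content were higher and none lower, and their median was 0.54. Over all 12387 genes with known GC content 4.27% were higher and 3.29% lower in this setting, with a median of -0.018.

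**Figure D5:**
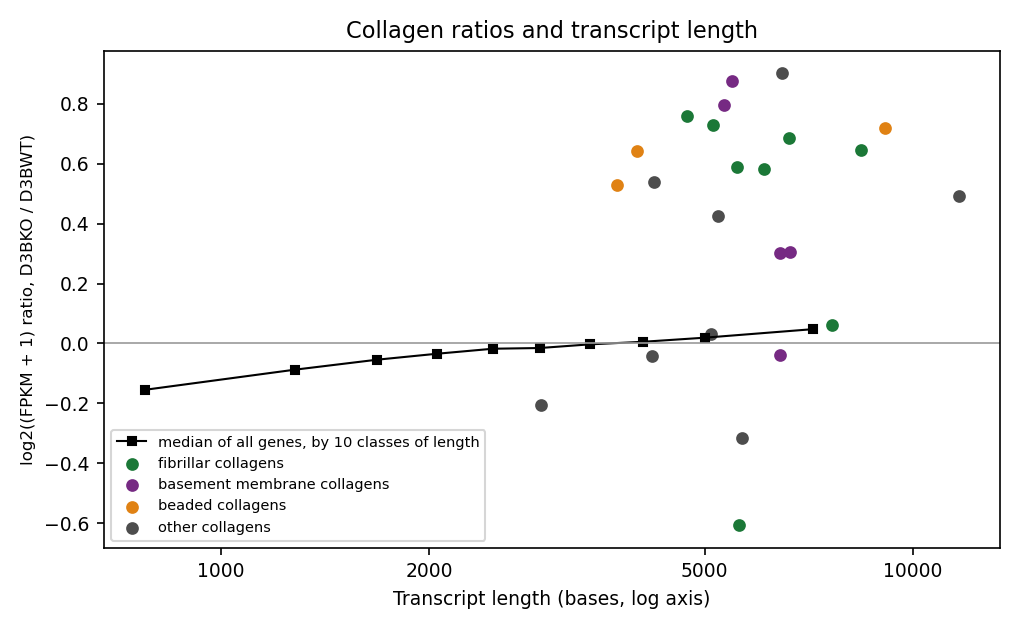
log2((FPKM + 1) ratio, D3BKO / D3BWT) of the 24 chains against transcript length (log axis), coloured by class; black squares are medians of all genes by 10 classes of length. The squares run from -0.15 to 0.05, which is under the 1.5-fold limit of the call, so the higher chains lie above them by definition.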

How the data were processed

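RNA was extracted from frozen brown adipose tissue and polyadenylated RNA was made into libraries, per the labels' protocols, which do not mention strand. The authors deposited, for each library and gene, identifiers, a transcript length, the FPKM and the expected count, per the file headers. RSEM and mm9 are named in the submitters' processing notes (aligner and versions not given in the sources used here). Deposited expected counts are estimates that divide reads matching several genes, and were rounded to whole numbers for intervals. Every count of the 24 chains was whole to within 0.05. The deposited FPKM values have 2 decimals. Genes not listed were set to 0. Symbols came from a RefSeq table of GRCm38.p6 by Entrez identifier, matching 16134 of 16174 genes; Wdnm1 was not matched.

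No count model can be fitted to 1 library per group. Ratios are FPKM ratios, with exact conditional Clopper-Pearson intervals of the counts at 95%. A pair of chains was compared by the conditional odds ratio of its counts. PCR copies are not independent molecules, so intervals cover counting error only. The trend was a robust spline fit (statsmodels 0.14.6) with GC content from GENCODE M21 transcripts. The call, and a trend fit in length and expression without GC content, were tested on simulated Poisson counts. These counts hold no variation between animals, lanes or libraries, so that variation was not covered. Statistics used scipy 1.17.1. Of the 7 partner and 11 marker lists, text names at most 4 genes each, those with the largest absolute log2 ratio, beside Ucp1 as a check of the tissue and markers at 0 in both libraries; a gene of the list of inducing signals is not reported here. The members and lists were chosen with earlier results of these data known.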

Additional observations from a re-analysis of the deposited data

How the results depend on the processing

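Of the 19 chains above 0, 18 stayed above 0 under every alternative that gave them a value, and Col8a1 changed sign. All 5 chains below 0 stayed below, though the intervals of Col4a5, Col13a1 and Col20a1 include 1, as does that of Col27a1 above 0. Every alternative used the same 2 libraries, so a kept sign is no replicate check. Col1a1, Col1a2, Col6a1, Col15a1 and Col18a1 were called higher under each alternative except the threshold of 2-fold. The count of higher chains, 10, became 5 with a pseudocount of 5 FPKM and 0 at 2-fold, where 106 genes in all were higher and 79 lower. It became 14 with a pseudocount of 0.1 FPKM and 13 with CPM. The single lower call, Col11a2, became 0 with a pseudocount of 5, with a mean of at least 5 FPKM, with the median log2 ratio of all genes set to 0, with the trend removed and at 2-fold. Over all genes 538 higher and 439 lower became 136 and 107 with a pseudocount of 5, 858 and 713 with 0.1, 221 and 191 with a mean of at least 5 FPKM, and 800 and 651 with CPM.

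The median log2 ratio of all chains, 0.53, became 0.38 with a pseudocount of 5 and 0.11 over 41 chains with no filter, since chains near 0 then enter. The fibrillar median of 0.62 became 0.51 with a pseudocount of 5 and 0.43 as a mean, and the beaded median of 0.64 became 0.34 with no filter. The basement membrane median of 0.31 became 0.55 with a mean of at least 5 FPKM, 0.39 with the same FPKM total (with or without the 20 most abundant genes), 0.38 with the trend removed and 0.45 as a mean. The median of the other types, 0.23, became -0.055 with the trend removed, where Col5a3 and Col12a1 have no GC content. In a setting chosen after seeing the data, without these chains and with the trend kept, it was 0.031. The median of general adipocyte markers, -0.04, became 0.0474 with the same FPKM total, with or without the 20 most abundant genes, and 0.14 with the trend removed. Where no cause is stated for these shifts, the cause was not tested. Of the partner and marker lists, higher fibril-binding proteins became 2 with a pseudocount of 5 and 1 at 2-fold, and lower endothelial markers, 4, became 2 with a pseudocount of 5 and with the same FPKM total, and 0 at 2-fold. Over all lists and alternatives, 46 counts of calls were lower by over 1.5 times and 12 higher. For collagen receptors and for procollagen processing, 1 higher gene became 3 with the same FPKM total. Leaving out genes with shared reads changed no collagen value. No chain of the other types had a mean of at least 5 FPKM, so that setting gives no value there. No paired analysis was possible because each genotype has 1 library, and no library could be left out. Depth limits chains under about 50 counts, whose intervals span several-fold.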

Other observations

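Chains with more than 1 listed transcript differed between the libraries in the deposited length, which RSEM averages over transcripts. Col18a1 had a length of 5384 bases in the D3BKO library and 5558 bases in the D3BWT library. Its ratio was 1.94 in FPKM and 1.88 in CPM. Col6a3 had 9143 bases in D3BKO and 9070 bases in D3BWT, with ratios of 1.71 in FPKM and 1.72 in CPM. Col4a5 had 6331 bases in D3BKO and 6503 bases in D3BWT, on 34 and 36 counts in that order.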
